A study of Sus scrofa with 8 samples.

Results

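The genes described here encode proteins that bind RNA, assemble the spliceosome or unwind RNA. They were taken by the first letters of the gene symbol, HNRN, SRSF, SF3A, SF3B, SNRP, U2AF, PRPF, RBM or DDX, and by level. That rule makes no use of the difference between groups, but the members were chosen with earlier results of these data known. Of the probe sets on the array, 154 carried such a symbol alone, for 99 genes. Where several probe sets read a gene, that with the highest mean was used, and 95 of the 99 genes passed a filter at a mean log2 level of 5.27, out of 5406 genes that passed in all. The genes left out were SRSF12, DDX4, DDX25 and DDX60, with mean log2 levels of 4.06, 3.60, 4.88 and 4.50. The nearest genes inside the filter were DDX58 at 5.43 and U2AF2 at 5.75.

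Levels were measured in biceps femoris, a thigh muscle, of female domestic piglets on an Affymetrix porcine array, with 4 control and 4 corticosteroid arrays. All piglets were immobilized under isoflurane with morphine and ketamine, ventilated through a tracheotomy for 5 days, and given glucose, streptomycin and benzylpenicillin. This is a model of acute quadriplegic myopathy (AQM), the limb weakness of intensive care, and the labels give that disease to both groups. The corticosteroid group received bolus doses of hydrocortisone over the 5 days, and its protocol speaks of 8 piglets weighing 26.4 kg on average. The control protocol speaks of 4 piglets weighing 25.5 kg on average and adds Escherichia coli endotoxin at 36 µg/kg/h for 1 h, an agent that their source label leaves out. A neuromuscular blocker, pancuronium bromide, appears in the design text without a group. Endotoxin, any processing batch and corticosteroid cannot be told apart here, and muscle of awake, mobile piglets was not analysed here. Nothing in the labels ties an array to an animal of its own. The p-values therefore measure only the spread between these samples, which may be technical.

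Splicing removes introns from the primary transcript and joins the exons. Small nuclear ribonucleoprotein particles (snRNPs) recognise the splice sites, U2AF and the SF3 complexes bind near the branch point, and PRPF proteins and DEAD-box helicases rearrange the particle. SR proteins mostly favour the use of an exon and hnRNPs often oppose it, and skeletal muscle depends on such choices for many isoforms of its contractile proteins. Several SR protein and hnRNP genes also carry alternative exons that target their own transcripts for decay, so the array level of such a gene depends on which part of the transcript a probe set reads.

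The control and corticosteroid columns of the deposited table did not appear to follow the same row order. The corticosteroid values were re-assigned to probe IDs sorted with full stops ignored, which moved the rows of 38 of the 95 genes. This order was found from the data. Array medians were 5.88 to 5.97 log2 in controls and 5.86 to 5.90 in corticosteroid arrays. Muscle markers were present, with mean log2 levels of 13.9 in controls and 14.0 in corticosteroid arrays for creatine kinase CKM. The summed level of 7 muscle markers was 16.08 to 16.57 in controls and 16.50 to 16.65 with corticosteroid. Of the 7, 5 had higher and 2 lower means with corticosteroid. Those at an unadjusted p under 0.05 in limma, 2 of the 7 against 9.49% of all probe sets, were TNNC2 (log2 difference 0.43) and TNNT3 (0.66). Each of the 7 macrophage markers tested had a lower corticosteroid mean, and 0 of the 7 reached an unadjusted p under 0.05 in limma. Their summed log2 level was 9.80 to 11.98 in controls, with the highest value on replicate 2, and 9.25 to 10.18 in corticosteroid arrays, with the lowest on replicate 4. In whole muscle, fewer cells of a type and less RNA per cell cannot be told apart. Of the neutrophil markers, 0 of 3 on the array passed the level filter, and the T and B cell, endothelial, fibroblast, adipocyte and satellite cell lists had 0 markers at an unadjusted p under 0.05. In the erythroid list 2 markers passed the filter and 1 of them, the globin HBB, had an unadjusted p under 0.05 (-0.55).

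Most of the splicing and RNA-binding genes had slightly lower means with corticosteroid, and none changed by the test. Of the 95 genes, 63 (66.3%) had lower means, against 47.2% of all 14361 probe sets tested. The median log2 difference was -0.08, against 0.02 over all probe sets. The size of the difference had a median of 0.25 over the 95 genes and 0.20 over all probe sets. In limma with Benjamini-Hochberg adjustment 0 of the 95 passed an adjusted p of 0.05, as did 0 of all probe sets (0.0%). The smallest adjusted p among them was 0.479. A log2 difference past 1 in size was measured for 1 of the 95 genes, SRSF7 (2.12% of all probe sets).

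At an unadjusted p under 0.05 there were 11 of the 95 genes (11.6%), close to the 9.49% of all probe sets tested. Of these, 8 were lower (4.71% of all probe sets) and 3 higher (4.78%). With each array centred on its median the split was 5 lower and 4 higher. The count was 7 without control replicate 3, without corticosteroid replicate 3 or without corticosteroid replicate 4. In those fits 902, 1025 and 892 of all probe sets were at an unadjusted p under 0.05, against 1363 with all arrays. Without control replicate 1 the count was 15 of the genes and 1783 of all probe sets. For 5 genes the corticosteroid and control values were fully separate (5.26%, against 5.56% of all probe sets). These were DDX51, HNRNPD and SNRPD3, with all corticosteroid arrays above all controls (3.05% of all probe sets), and SNRPB and RBM18, with all below (2.51%). A share near the background is not a result about these genes.

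The count of lower means varied with the arrays included. Corticosteroid replicate 4 was the lowest of the 8 arrays for 34 of the 95 genes (35.8%), against 18.6% of all 5406 genes. With each array centred on its median 57 of 95 genes had lower means, and after quantile normalization 61. Without corticosteroid replicate 4, 51 of 95 genes had lower means and the median difference was -0.01. Without corticosteroid replicate 1 the count was 65 with a median of -0.14. It was 64 without control replicate 1 (median -0.12) and 64 without corticosteroid replicate 3 (median -0.10). Without control replicate 3 the count was 54, and without control replicate 2 and corticosteroid replicate 4 together it was 48 with a median of -0.02. The 47.2% of all probe sets was taken with all 8 arrays, without centring or quantile normalization. These counts therefore have no background share of their own. Control replicate 2 was the highest array for 27 of the 95 genes (28.4%, against 21.1% of all genes) and control replicate 3 for 21 (22.1%, against 12.2%). Corticosteroid replicate 4 also had the lowest macrophage marker level and control replicate 2 the highest. Their part in these values was not tested.

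**Figure D1:**
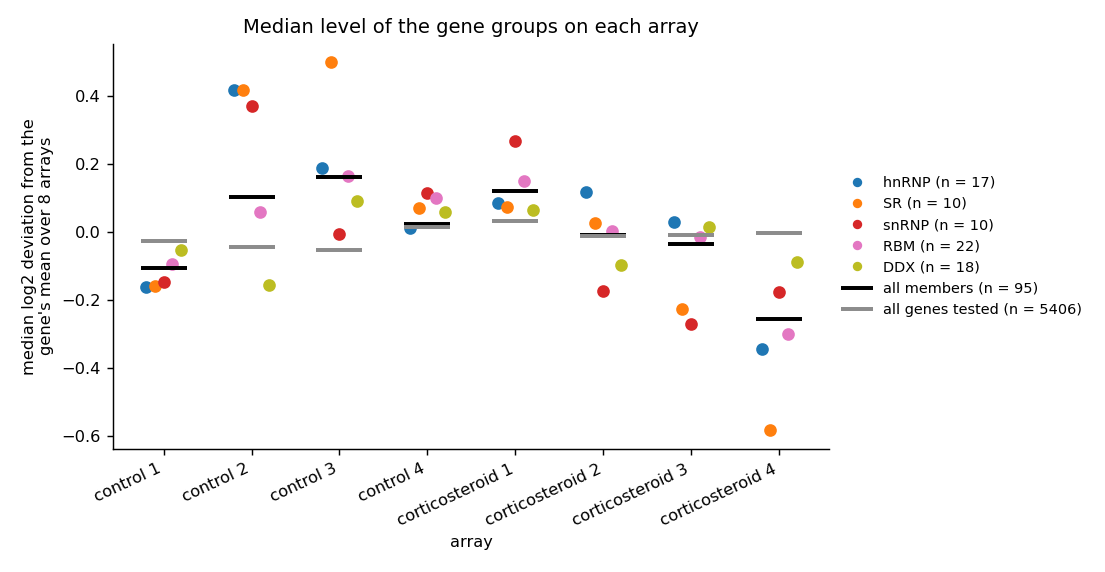
Median log2 deviation (vertical axis) of 5 gene groups, of all 95 splicing and RNA-binding genes and of all 5406 genes tested, on each of the 8 arrays (horizontal axis). The median of the 95 genes was lowest on corticosteroid replicate 4 (-0.26) and highest on control replicate 3 (0.16), while that of all genes stayed between -0.05 and 0.03.

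Of the 10 SR protein genes, 9 had lower means with corticosteroid, with differences from -1.19 to 0.27 and a median of -0.33. That median was -0.20 without control replicate 3 and -0.47 without control replicate 1. The 3 with an unadjusted p under 0.05 in limma, SRSF7, SRSF2 and SRSF3, were all lower (4.71% of all probe sets were lower at that p), and 0 of 10 had groups that did not overlap (5.56% of all probe sets). SR proteins carry an RNA recognition motif and a tail rich in arginine and serine, through which they recruit the spliceosome to exons. The 9 to 1 split was the same after quantile normalization, after centring on the array median and with the probe sets of a gene averaged. Without control replicate 2 and corticosteroid replicate 4 it was 7 to 3, with 0 at an unadjusted p under 0.05. That fit has fewer arrays, and the share of all probe sets at that p in it is not given here.

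SRSF7, an SR protein that also shuttles to the cytoplasm and aids mRNA export, stood at log2 levels of 9.52, 10.20, 10.37 and 9.41 on control replicates 1 to 4. The corticosteroid replicates stood at 9.42, 9.17, 7.84 and 8.33. Replicates 3 and 4 of the corticosteroid group lay far below all others, and replicate 1 lay just above the lowest control, so the groups overlapped. The mean was 9.87 ± 0.48 (SD, n = 4) in controls and 8.69 ± 0.73 (SD, n = 4) with corticosteroid. The log2 difference was -1.19 (SE 0.38), a fold of 0.439, with a 95% interval of -2.03 to -0.34 (limma unadjusted p = 0.011, adjusted p = 0.479).

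SRSF2, also known as SC35 and a general activator of exon inclusion, stood at 10.63, 11.55, 11.34 and 11.51 in controls 1 to 4 and at 11.11, 9.92, 10.28 and 10.03 in corticosteroid replicates 1 to 4. Control replicate 1 was the low control and corticosteroid replicate 1 lay above it, while the other corticosteroid arrays were below all controls. Its difference was -0.92 (SE 0.30) with an interval of -1.60 to -0.25 (limma unadjusted p = 0.0124, adjusted p = 0.479). SRSF3, the smallest SR protein and one that limits its own expression through splicing, had control values of 9.91, 10.76, 10.65 and 9.98 and corticosteroid values of 10.20, 9.61, 9.24 and 9.34. Again corticosteroid replicate 1 lay among the controls and the 3 others lay below them. The difference for SRSF3 was -0.72 (SE 0.28) (limma unadjusted p = 0.0287, adjusted p = 0.482). The row of SRSF7 was the same in both row orders, and those of SRSF2 and SRSF3 were moved by the re-ordering.

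The other SR genes had smaller differences. SRSF5, the only one of the 10 with a higher mean, stood at 8.62, 8.04, 9.23 and 8.67 in controls and 8.18, 9.11, 9.36 and 9.01 with corticosteroid, a difference of 0.27 (SE 0.32) that was 0.07 without control replicate 2. For SRSF6 the difference was -0.40 (SE 0.25) and -0.20 without control replicate 3. Of the 6 probe sets of SRSF6 past the filter the other 5 differed by -0.35, -0.17, 0.32, 0.16 and 0.08, so 3 were negative and 3 positive. For SRSF10, a splicing repressor that heat shock dephosphorylates, it was -0.38 (SE 0.30) and -0.19 without corticosteroid replicate 4. A further probe set of SRSF10 stood at 7.11, 7.64, 8.18 and 7.65 in controls and 7.09, 7.07, 6.97 and 6.83 with corticosteroid, with all corticosteroid arrays below all controls. It differed by -0.65 (SE 0.22) (limma unadjusted p = 0.0162, adjusted p = 0.479), and the 2 remaining probe sets by -0.19 and -0.43. The controls of these genes were widely spread, as control replicates 2 and 3 stood above control replicates 1 and 4 for SRSF1, SRSF3, SRSF6, SRSF7, SRSF9 and SRSF10.

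**Figure D2:**
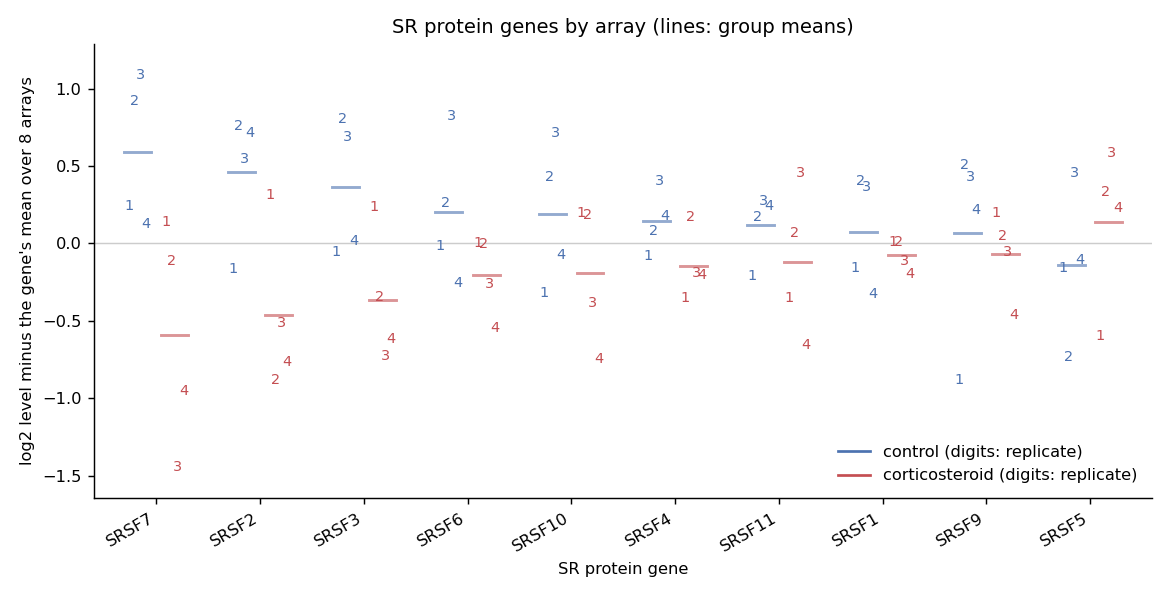
Log2 level of the 10 SR protein genes on each array, minus the gene's mean over the 8 arrays (vertical axis); digits are replicate numbers, blue for control and red for corticosteroid, and lines are group means. SRSF7, SRSF2 and SRSF3 had the lowest corticosteroid means relative to control, with corticosteroid replicate 1 inside the control range for each.

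Of the 17 hnRNP genes, 11 had lower means (median -0.13, range -0.61 to 0.52). At an unadjusted p under 0.05 in limma 1 was lower and 1 higher. Together that is 11.8%, close to the 9.49% of all probe sets (4.71% lower and 4.78% higher). The count of lower means was 8 without control replicate 3 (median 0.02) and 12 without corticosteroid replicate 3 (median -0.10). HNRNPs coat the primary transcript, and many repress nearby splice sites. HNRNPD, also called AUF1, binds AU-rich elements and governs mRNA decay. Its levels were 10.17, 10.11, 10.48 and 10.61 in controls and 10.77, 10.64, 11.12 and 10.91 with corticosteroid, so every corticosteroid array stood above every control. The difference was 0.52 (SE 0.18), a fold of 1.43, with an interval of 0.12 to 0.92 (limma unadjusted p = 0.017, adjusted p = 0.479). A further probe set of HNRNPD gave 0.55 (SE 0.19), with corticosteroid replicate 1 below control replicate 4.

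HNRNPA2B1, a repressor of exon inclusion and RNA transport factor, had control values of 11.0, 11.45, 11.11 and 11.34 and corticosteroid values of 10.79, 11.26, 9.90 and 10.51. Only corticosteroid replicate 2 reached the control range. The difference was -0.61 (SE 0.27) (limma unadjusted p = 0.0477, adjusted p = 0.524), and it was -0.37 without corticosteroid replicate 3. HNRNPDL, a relative of HNRNPD, stood at 11.09, 10.64, 11.24 and 11.03 in controls and 11.02, 11.28, 11.19 and 11.05 with corticosteroid, a difference of 0.13 (SE 0.16) that was 0.01 without control replicate 2. HNRNPUL1, a nuclear RNA-binding protein linked to export and DNA repair, differed by 0.06 (SE 0.17), with controls of 8.83, 8.73, 8.85 and 8.61 and corticosteroid arrays of 8.58, 8.96, 8.92 and 8.80.

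HNRNPL, a CA-repeat binding regulator, had the widest spread of the 95 genes and was singled out after its values were seen. Its levels were 8.16, 8.51, 6.74 and 6.66 in controls and 8.88, 6.51, 9.21 and 7.08 with corticosteroid. Corticosteroid replicates 1 and 3 stood far above replicates 2 and 4, and controls 1 and 2 stood well above controls 3 and 4. The difference of 0.40 (SE 0.66) was smaller than its SE, with an interval of -1.09 to 1.89.

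Among the 10 snRNP protein genes 6 had lower means, with a median of -0.19 (-0.08 without control replicate 2) and a range of -0.89 to 0.87. The Sm proteins B, D1, D3, F and G form part of the ring around the small nuclear RNA, and their differences had both signs. SNRPB, the B/B′ Sm protein, stood at 9.90, 10.25, 10.22 and 10.23 in controls and 9.79, 9.43, 9.61 and 9.73 with corticosteroid, and every corticosteroid value was under the lowest control. SNRPB differed by -0.51 (SE 0.16), a fold of 0.701, with an interval of -0.88 to -0.14 (limma unadjusted p = 0.0119, adjusted p = 0.479). SNRPD1 had values of 9.19, 10.33, 10.06 and 9.66 in controls and 9.93, 8.67, 8.98 and 8.09 with corticosteroid. Corticosteroid replicate 1 lay inside the control range and the other 3 corticosteroid arrays lay below every control. SNRPD1 differed by -0.89 (SE 0.39) (limma unadjusted p = 0.0466, adjusted p = 0.524), and by -0.44 without control replicate 2 and corticosteroid replicate 4.

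SNRPD3, which pairs with SNRPB in the ring, had a higher mean. Its levels were 10.06, 10.36, 10.16 and 8.39 in controls and 10.88, 10.72, 10.40 and 10.46 with corticosteroid, and all corticosteroid arrays lay above all controls. Control replicate 4 stood far below the other controls, and without it the difference of 0.87 (SE 0.40) was 0.42 (limma unadjusted p = 0.0536 with all arrays). SNRPC, a U1 snRNP protein that helps bind the 5′ splice site, differed by -0.10 (SE 0.16), with controls of 10.95, 10.65, 10.98 and 10.69 and corticosteroid arrays of 10.97, 10.68, 10.65 and 10.58. The groups overlapped in part, with corticosteroid replicates 3 and 4 below every control. The other 6 snRNP genes, SNRPA, SNRPA1, SNRPB2, SNRPF, SNRPG and SNRPN, differed by -0.45 to 0.13.

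The SF3 proteins are subunits of the U2 snRNP. At an unadjusted p under 0.05 in limma there were 0 of the 7 SF3 genes, against 9.49% of all probe sets. In a list of this size that is not a result about these genes. Differences ran from -0.21 to 0.10, with a median size of 0.05 against 0.20 over all probe sets. SF3B1, the large subunit that clamps the branch point, stood at 10.13, 10.62, 10.42 and 10.63 in controls and 10.24, 10.43, 10.72 and 10.11 with corticosteroid. The ranges nearly coincided, and the difference was -0.07 (SE 0.19) with an interval of -0.50 to 0.36. SF3B6, the small subunit p14 near the branch point, stood at 10.61, 10.16, 10.87 and 10.15 in controls and 10.73, 10.12, 10.11 and 9.99 with corticosteroid, a difference of -0.21 (SE 0.23) that was -0.07 without control replicate 3.

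U2AF was represented by 2 genes, with no unadjusted p under 0.05 in limma (9.49% of all probe sets), which for 2 genes is not a result. U2AF1L4, a relative of the small subunit that reads the AG at the 3′ splice site, had values of 6.81, 6.61, 6.60 and 7.39 in controls and 7.31, 7.15, 7.0 and 7.56 with corticosteroid. Control replicate 4 lay within the corticosteroid range, and the difference was 0.41 (SE 0.22) (limma unadjusted p = 0.0937). The large subunit U2AF2 differed by -0.01, a sign that turned after quantile normalization and after centring on the array median.

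The 9 PRPF genes, some of which encode components of the U4/U6.U5 particle, split into 5 lower and 4 higher means, from -0.43 to 0.45. The split was 2 lower and 7 higher without corticosteroid replicate 4, and 3 lower and 6 higher without control replicate 2 or without control replicate 3. PRPF18, a factor of the second catalytic step, stood at 8.23, 8.10, 8.26 and 8.66 in controls and 8.74, 8.53, 9.11 and 8.68 with corticosteroid. Control replicate 4 overlapped the corticosteroid range, and the difference was 0.45 (SE 0.20) (limma unadjusted p = 0.0483, adjusted p = 0.524). PRPF39, a U1-associated factor, stood at 8.73, 7.98, 8.36 and 8.56 in controls and 8.59, 8.87, 9.69 and 8.14 with corticosteroid, a difference of 0.41 (SE 0.32). Corticosteroid replicate 3 was the high array of PRPF39, and without it the difference was 0.12.

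Of the 22 RBM genes, whose proteins share an RNA recognition motif but differ widely in role, 15 had lower means, with a median of -0.08. The median was -0.01 without corticosteroid replicate 4 and -0.22 without corticosteroid replicate 1. The range was -0.52 to 0.64. RBM18 stood at 9.33, 9.37, 9.69 and 9.60 in controls and 9.03, 9.31, 9.06 and 9.01 with corticosteroid. Every corticosteroid array lay below every control, though corticosteroid replicate 2 was close to control replicate 1. RBM18 differed by -0.40 (SE 0.17) (limma unadjusted p = 0.0418, adjusted p = 0.514), and a further probe set of the gene by 0.00 (SE 0.19). RBM48, a factor of the minor spliceosome, had the largest positive difference of the group, 0.64 (SE 0.31). Its levels were 8.19, 7.27, 8.21 and 8.29 in controls and 8.34, 8.72, 9.26 and 8.18 with corticosteroid, and control replicate 2 stood far below all other arrays. Without that array the difference was 0.40.

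RBM4, which regulates splice choice and promotes muscle cell differentiation, stood at 8.28, 7.96, 8.38 and 7.90 in controls and 8.56, 8.45, 8.18 and 8.93 with corticosteroid, a difference of 0.40 (SE 0.21) that was 0.26 without corticosteroid replicate 4. RBM5, a regulator of apoptosis gene splicing, stood at 9.80, 9.58, 9.53 and 9.92 in controls and 9.77, 9.91, 9.96 and 10.07 with corticosteroid, a difference of 0.23 (SE 0.16). RBM3, a cold-inducible protein that accumulates in muscle at low temperature, had control values of 8.08, 9.77, 8.52 and 8.58 and corticosteroid values of 8.92, 8.22, 9.59 and 8.52. Control replicate 2 and corticosteroid replicate 3 were its high arrays. The difference was 0.08 (SE 0.40), and its sign turned without control replicate 1 (-0.14) or without corticosteroid replicate 3 (-0.18).

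The 18 DDX genes are a family of ATP-dependent RNA helicases rather than a splicing group, and several work in ribosome assembly or in sensing viral RNA. Of these, 11 had lower means, with a median of -0.06 and a range of -0.75 to 0.54. Without corticosteroid replicate 4 the split was 9 to 9 with a median of 0.0077, and without control replicate 4 it was 9 to 9 with a median of -0.0225. The median was -0.0187 without control replicate 3, -0.03 without control replicate 1 and -0.0995 without corticosteroid replicate 1. DDX51, a helicase of ribosomal RNA processing, had the smallest unadjusted p of the 95 genes. It stood at 6.20, 5.74, 5.94 and 6.14 in controls and 6.58, 6.60, 6.68 and 6.31 with corticosteroid, with every corticosteroid array above every control. The difference was 0.54 (SE 0.16), a fold of 1.45, with an interval of 0.18 to 0.89 (limma unadjusted p = 0.00708, adjusted p = 0.479).

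DDX46, the helicase also known as PRP5 that helps load the U2 snRNP, stood at 8.09, 8.28, 8.33 and 8.77 in controls and 7.64, 7.33, 8.37 and 7.11 with corticosteroid. Corticosteroid replicate 3 lay inside the control range and the other 3 corticosteroid arrays lay below it. DDX46 differed by -0.75 (SE 0.28) (limma unadjusted p = 0.0251, adjusted p = 0.482), and a further probe set by -0.06 (SE 0.31). DDX50, a nucleolar helicase, stood at 7.76, 7.80, 7.37 and 7.67 in controls and 7.76, 8.22, 8.12 and 7.95 with corticosteroid. Its corticosteroid replicate 1 lay among the controls, and the difference was 0.36 (SE 0.18). DDX1, which acts in transfer RNA ligation, differed by -0.08 (SE 0.20), with controls of 10.78, 10.32, 10.67 and 10.60 and corticosteroid arrays of 10.48, 10.95, 10.53 and 10.11. DDX58, the viral RNA sensor RIG-I, stood at 6.06, 5.10, 5.21 and 5.0 in controls and 5.10, 5.21, 6.48 and 5.30 with corticosteroid. Control replicate 1 and corticosteroid replicate 3 were the high arrays of DDX58, and its difference was 0.18 (SE 0.34).

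**Figure D3:**
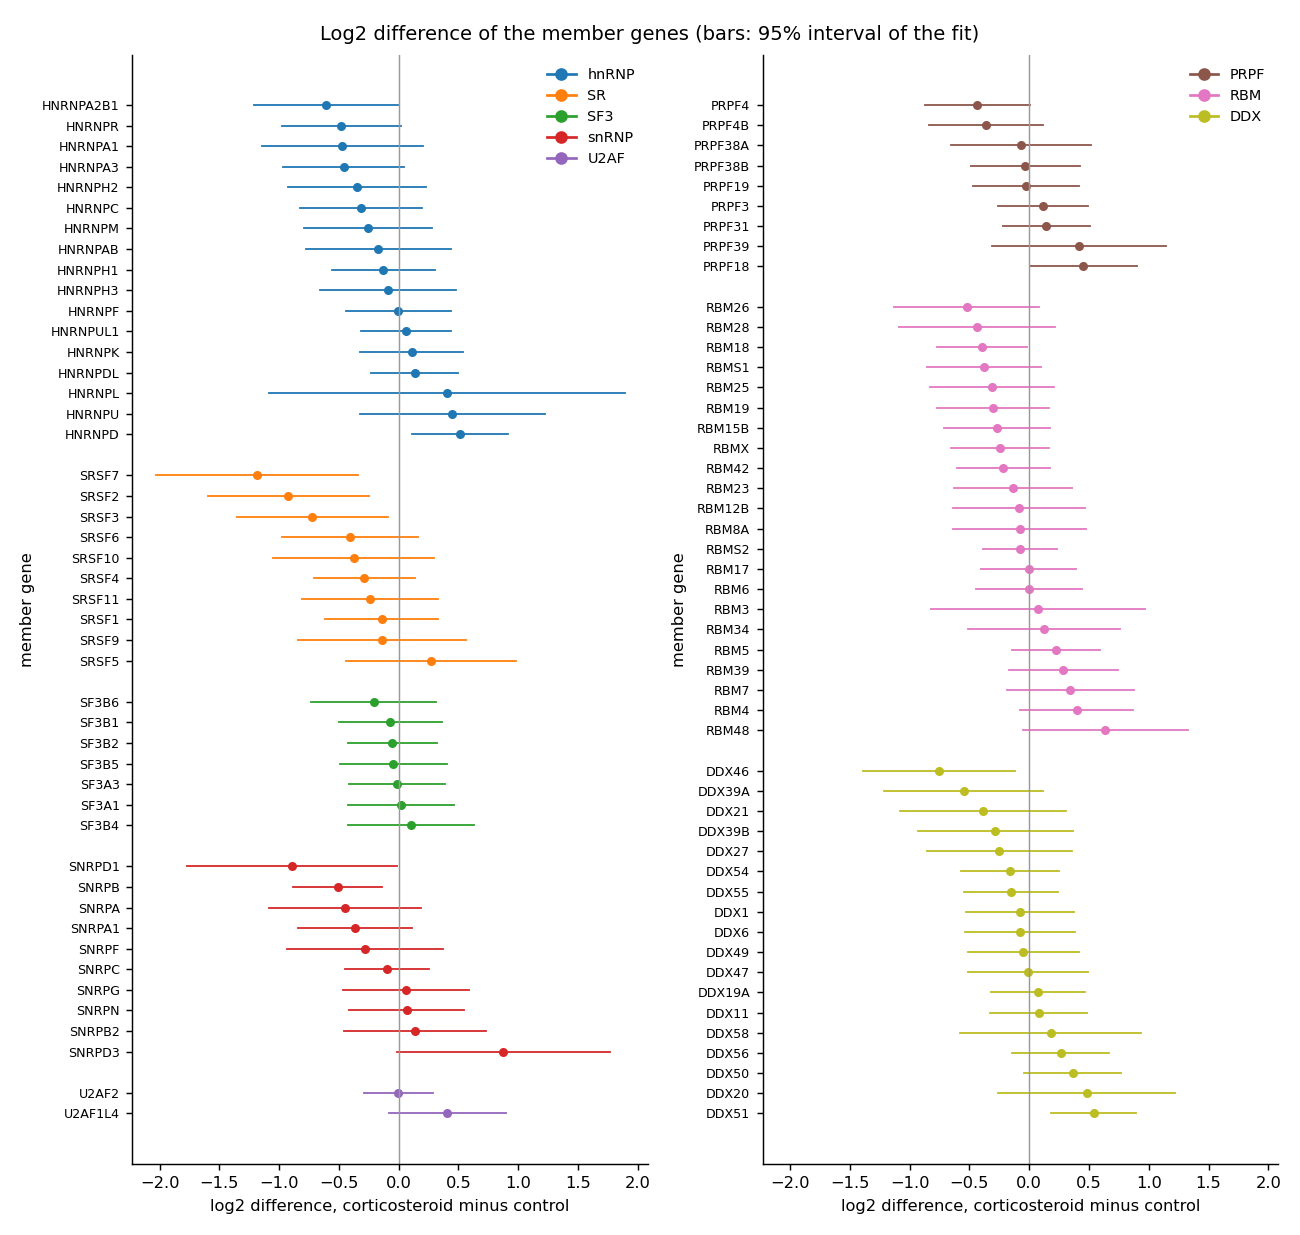
Log2 difference, corticosteroid minus control (horizontal axis), of each of the 95 genes (vertical axis), grouped by symbol; points are estimates of the fit over 4 and 4 arrays and bars their 95% intervals. SRSF7 had the lowest value (-1.19) and SNRPD3 the highest (0.87), and 0 of the 95 passed after adjustment over all probe sets.

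Probe sets of the same gene did not always differ between the groups in the same direction. Of the 95 genes, 30 had more than 1 probe set past the filter, 71 probe sets in all, and in 13 of the 30 the signs of the differences disagreed. The share of such disagreement over all genes was not taken, and some of these differences were close to none. In 3 of the 13 genes a probe set had an unadjusted p under 0.05 in limma. SRSF1, the SR protein first known as ASF/SF2, is an example. Its first probe set stood at 8.62, 9.18, 9.14 and 8.45 in controls and 8.79, 8.79, 8.67 and 8.58 with corticosteroid, a difference of -0.14 (SE 0.21). The second stood at 8.58, 9.13, 8.75 and 9.18 in controls and 8.29, 8.02, 7.77 and 8.17 with corticosteroid, a difference of -0.84 (SE 0.21) with all corticosteroid arrays below all controls. Its limma unadjusted p was 0.0024 and its adjusted p 0.469. The third stood at 7.44, 8.03, 7.84 and 6.91 in controls and 8.34, 7.97, 8.05 and 8.13 with corticosteroid, a difference of 0.57 (SE 0.25) that was 0.35 without control replicate 4 (limma unadjusted p = 0.0472 with all arrays).

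The gap between probe sets on the same array was compared for all 41 pairs of a further probe set with the first, a comparison added after the values were seen. In 8 of the 41 pairs the gaps of the groups did not overlap, giving an exact two-sided permutation p of 0.0286, the smallest that 4 against 4 arrays can give. That is 19.5% of the pairs, against 9.03% of the 1971 such pairs over all genes with several probe sets past the filter. After Benjamini-Hochberg adjustment of the exact p-values over the pairs these had p = 0.146. That value was set by the number of pairs at the smallest possible p, so it could not single out any pair. Pairs of the same gene share its first probe set, so the 41 pairs are not independent. Both SRSF1 pairs were among the 8, with gaps that differed by -0.70 and 0.71 log2 between the groups. The others were DDX46 (0.69), HNRNPUL1 (-0.67), HNRNPH2 (-0.52), RBM18 (0.39), RBM39 (-0.29) and RBM5 (-0.29).

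For HNRNPUL1 the further probe set differed by -0.61 (SE 0.23), with all corticosteroid arrays below all controls, and by -0.39 without control replicate 4. The further probe set of HNRNPH2, a G-run binding repressor and enhancer, stood at 6.19, 6.93, 6.82 and 6.81 in controls and 6.13, 5.98, 5.77 and 5.42 with corticosteroid. It differed by -0.86 (SE 0.22) (limma unadjusted p = 0.00274), against -0.35 (SE 0.26) for the first. A further probe set of HNRNPC, which binds uridine tracts, differed by -0.60 (SE 0.16) and the first by -0.32 (SE 0.23). That further probe set was close to the filter level. The remaining probe sets of HNRNPA2B1 differed by 0.18 (SE 0.29) and 0.31 (SE 0.38), opposite in sign to the first, and both were negative without control replicate 2 (-0.06 each). Over all 136 probe sets of the 95 genes past the filter, 90 (66.2%) had lower means, against 47.2% of all probe sets tested. At an unadjusted p under 0.05 in limma 13 were lower and 6 higher, together 14.0% against 9.49% of all probe sets (4.71% lower and 4.78% higher). The sequences that the probe sets read were not used here, and the sources do not say which transcript each one reads.

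**Figure D4:**
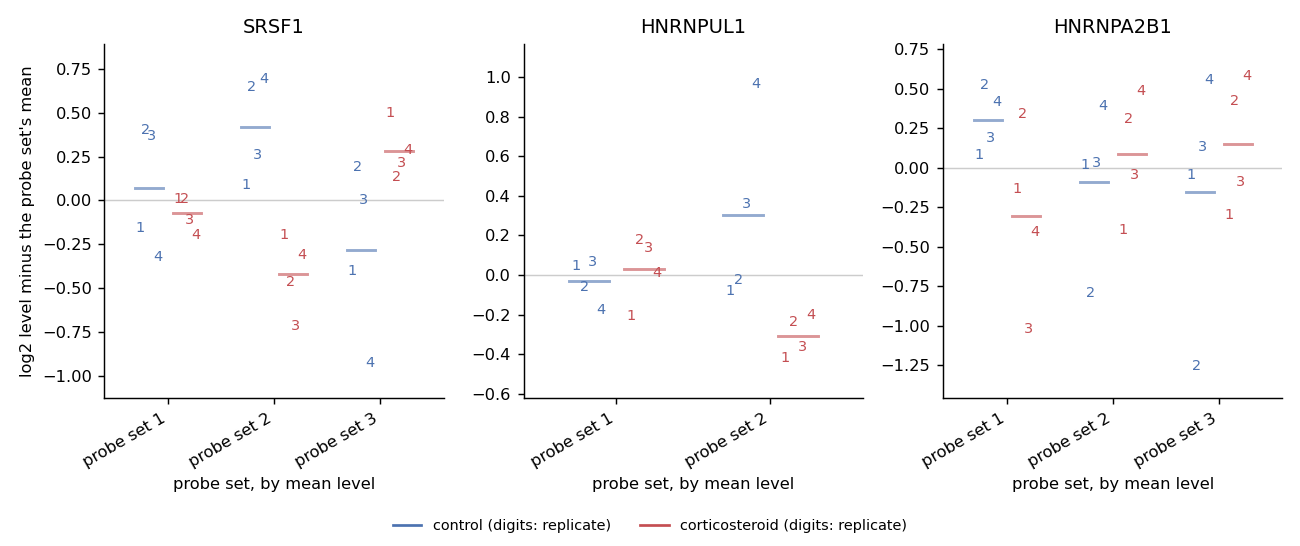
Log2 level of each probe set of SRSF1, HNRNPUL1 and HNRNPA2B1 on each array, minus that probe set's mean over the 8 arrays (vertical axis); digits are replicate numbers, blue for control and red for corticosteroid, and lines are group means. For SRSF1 the second probe set was lower (-0.84) and the third higher (0.57) with corticosteroid.

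Other genes of RNA processing, on a list of 165 further genes, were measured for 99. Of these, 53 had lower means and 46 higher, with a median of -0.04, and 0 passed after adjustment. Without corticosteroid replicate 4 the split was 48 lower and 51 higher with a median of 0.02, and without control replicate 2 it was 60 and 39. The median was -0.003 without control replicate 4, -0.0175 without control replicate 3 and -0.0649 without control replicate 1. At an unadjusted p under 0.05 there were 12 (12.1%, against 9.49% of all probe sets), 6 lower and 6 higher. The groups did not overlap for 6 (6.06%, against 5.56% of all probe sets), 4 above (3.05% of all probe sets) and 2 below (2.51%). Over all probe sets 47.2% had lower means. By subgroup, 17 of 22 further splicing regulators had lower means (median -0.21, and -0.09 without control replicate 2). For the spliceosome core and assembly factors 13 of 36 were lower, for exon junction, export and decay factors 9 of 12, for cleavage and polyadenylation factors 9 of 13, and for mRNA binding and translation control 5 of 11. Leaving out corticosteroid replicate 4 gave 8 of 36 for the spliceosome core. Leaving out control replicate 2 gave 17 of 36, and 8 of 11 for mRNA binding. Without control replicate 2 and corticosteroid replicate 4 together, 7 of 12 exon junction, export and decay factors had lower means. In that fit it was 11 of 13 for cleavage and polyadenylation and 18 of 22 for splicing regulators.

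All 5 kinases of SR proteins measured had higher means with corticosteroid, with a median difference of 0.39 (0.26 without control replicate 2 and 0.26 without corticosteroid replicate 3). Without corticosteroid replicate 2 the count was 4 of 5. The CLK kinases phosphorylate the tail of SR proteins and release them from nuclear speckles. CLK3 stood at 7.62, 7.29, 7.47 and 7.71 in controls and 7.82, 7.94, 8.44 and 8.45 with corticosteroid, with all corticosteroid arrays above all controls. CLK3 differed by 0.64 (SE 0.20) (limma unadjusted p = 0.0117, adjusted p = 0.479). CLK4 stood at 7.20, 6.55, 6.31 and 7.36 in controls and 7.55, 7.95, 8.19 and 7.19 with corticosteroid, with corticosteroid replicate 4 inside the control range, and differed by 0.87 (SE 0.30) (limma unadjusted p = 0.0162). CLK1 differed by 0.30 (SE 0.28), and by 0.05 without control replicate 3. DYRK1A differed by 0.39 (SE 0.28) and by 0.19 without control replicate 2, and CLK2 by 0.06 (SE 0.15). The CLK2 value was 0.00 without corticosteroid replicate 2.

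CIRBP, a cold-inducible RNA-binding protein related to RBM3, stood at 7.56, 6.87, 7.15 and 7.67 in controls and 7.60, 8.39, 8.08 and 8.26 with corticosteroid, and corticosteroid replicate 1 lay just below control replicate 4. CIRBP differed by 0.77 (SE 0.24) (limma unadjusted p = 0.0111, adjusted p = 0.479). The difference between CIRBP and RBM3 was not tested.

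SYNCRIP, an hnRNP-like protein also called hnRNP Q, had all corticosteroid arrays below all controls. Its levels were 9.10, 9.93, 9.93 and 9.52 in controls and 9.08, 8.89, 8.46 and 8.70 with corticosteroid, a difference of -0.84 (SE 0.24) (limma unadjusted p = 0.00598, adjusted p = 0.472). ELAVL1, also called HuR, which stabilises AU-rich mRNAs, likewise had all corticosteroid arrays below all controls. Its levels were 10.37, 10.44, 10.52 and 10.51 in controls and 10.24, 10.09, 9.95 and 9.85 with corticosteroid, a difference of -0.43 (SE 0.15). TRA2B, an SR-like activator, differed by -0.65 (SE 0.27). The poly(A) polymerase PAPOLA stood at 9.91, 10.23, 10.78 and 10.08 in controls and 9.94, 9.80, 9.0 and 8.75 with corticosteroid and differed by -0.88 (SE 0.31), and the cytoplasmic poly(A)-binding protein PABPC1 by -0.71 (SE 0.24). Leaving out control replicate 2 and corticosteroid replicate 4 together brought TRA2B to -0.34 and PABPC1 to -0.43.

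Of the factors with higher means, XAB2, a scaffold of the activated spliceosome, stood at 6.85, 6.06, 7.0 and 6.68 in controls and 7.28, 7.42, 7.78 and 7.36 with corticosteroid. Every corticosteroid array lay above every control, and the difference was 0.82 (SE 0.23) (limma unadjusted p = 0.0051, adjusted p = 0.469). ZRSR2, which reads the 3′ splice site of minor introns, stood at 5.86, 5.32, 5.55 and 5.58 in controls and 6.04, 6.29, 6.06 and 6.05 with corticosteroid, again without overlap, and differed by 0.54 (SE 0.15) (limma unadjusted p = 0.00533). Its signal was close to the filter level of 5.27. SART1, a protein of the U4/U6.U5 particle, differed by 0.82 (SE 0.28) and by 0.41 without control replicate 2 and corticosteroid replicate 4.

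**Figure D5:**
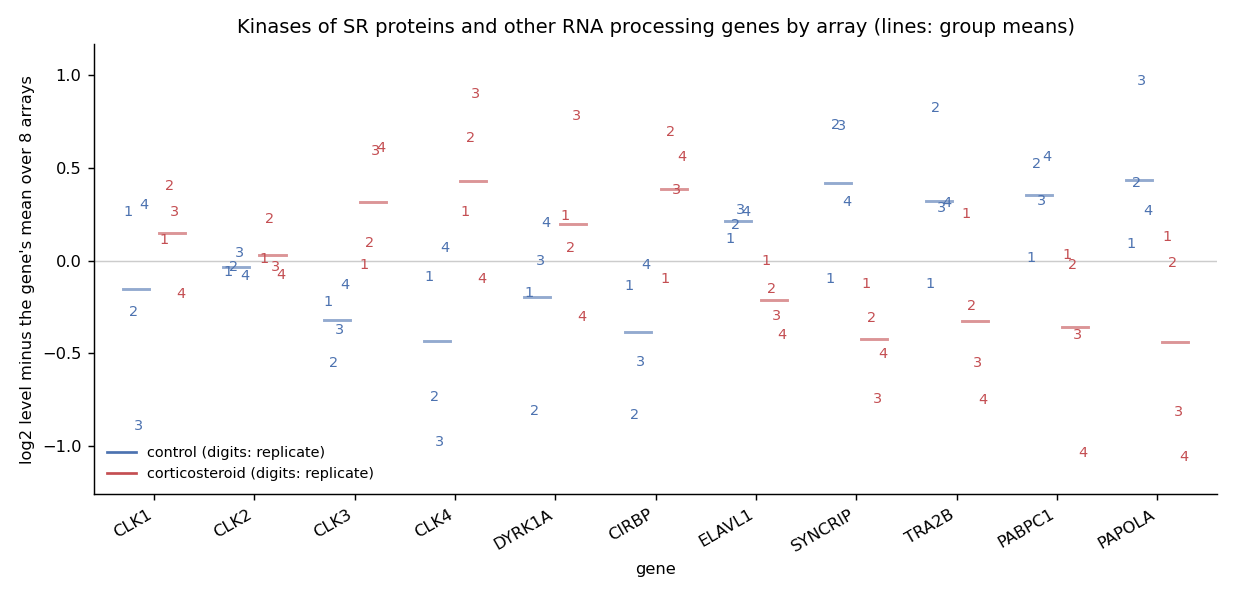
Log2 level of 5 kinases of SR proteins and 6 other RNA processing genes on each array, minus the gene's mean over the 8 arrays (vertical axis); digits are replicate numbers, blue for control and red for corticosteroid, and lines are group means. All corticosteroid arrays lay above the controls for CLK3 and below them for ELAVL1 and SYNCRIP.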

How the data were processed

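Expression was measured on Affymetrix porcine arrays in biceps femoris, with 4 control and 4 corticosteroid arrays grouped by their titles. The deposited values are log2 levels for 23999 probe sets. The submitters' processing notes name MAS5 only. For the scaling between arrays and the genome build: not given in the sources used here. Corticosteroid values were re-assigned to probe IDs sorted as text with full stops ignored (9389 rows moved, 39.1%, with 0 tied IDs), while control columns stayed as listed. Across the moved rows, the correlation of the control mean with the corticosteroid mean was 0.0997 as deposited and 0.989 after re-ordering.

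Symbols came from the platform's annotation. After 64 reporter probe sets were left out, the 14361 above the 40th percentile of mean level (5.27 log2) were fitted with limma 3.58.1 in R 4.3.3 (lmFit, eBayes with intensity trend), corticosteroid minus control, with Benjamini-Hochberg adjustment over all of them at 0.05. SE and 95% intervals are those of the moderated fit. The number of arrays limits the precision. The fit was checked on simulated data. Tables were made with Python 3.11.15 and pandas 2.3.3.

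Members and lists were chosen with earlier results of these data known. Named were, by rule, the 8 members of smallest p in each direction, each group's member of highest level and of smallest p, those whose groups did not overlap, RBM3, CIRBP, members whose probe sets disagree in sign with 1 at p under 0.05, and 4 further genes of smallest p in each direction. DDX3X and DDX3Y, also named in the rule, are not among the members. HNRNPL, HNRNPC, HNRNPH2, SRSF5, SRSF6, SRSF10, DDX58, CLK1, CLK2, CLK4, DYRK1A, TRA2B and SART1 were added after their values were seen. Same-numbered arrays did not deviate together (correlations of -0.246 to 0.109), so the numbers were not taken as pairs. Alternatives covered the row order, filter, scaling, log offset of 16, variance model, weights, probe set choice, replicate block and left-out arrays.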

Additional observations from a re-analysis of the deposited data

Results flagged for a closer look

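In 7 of 94 groups of 4 arrays checked over the named genes, the array at one end stood apart from the others by Dixon's criterion of 0.829, and chance flags about 1 in 20 groups. For SNRPD3 control replicate 4 was at 8.39 log2 and the next control at 10.06. For RBM48 control replicate 2 was at 7.27 and the next control at 8.19, and for SNRPB control replicate 1 was at 9.90 and the next at 10.22. In the corticosteroid group, DDX58 stood at 6.48 on replicate 3 with the next at 5.30, and the first probe set of HNRNPH2 at 6.46 on replicate 4 with the next at 7.20. RBM18 stood at 9.31 on corticosteroid replicate 2 with the next at 9.06, and ZRSR2 at 6.29 on the same array with the next at 6.06.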

How the results depend on the processing

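With rows as deposited, 5454 probe sets passed an adjusted p of 0.05, 6101 had an unadjusted p under 0.05, the median difference of the splicing and RNA-binding genes was -0.36, and 41 of them had an unadjusted p under 0.05. Signs that turned with the rows as deposited were those of RBM4 (-3.58), RBM5 (-1.87), RBM3 (-3.47), U2AF1L4 (-1.06), HNRNPUL1 (-3.66), CLK1 (-2.44) and CLK2 (-3.56). With unmoved rows only, 828 probe sets had an unadjusted p under 0.05 and 36 of the 57 genes left had lower means. With no filter the count of probe sets was 2160. With probe sets of a gene averaged HNRNPUL1 was at -0.28. Without control replicate 2 and corticosteroid replicate 4 together, 4 of the genes had an unadjusted p under 0.05, and SF3B1 (0.074) and SRSF1 (0.0075) changed sign. The share of all probe sets in that fit is not given here, so the count of 4 is not a result about these genes. Leaving out 1 array at a time gave 892 to 1783 probe sets and 7 to 15 of the genes at an unadjusted p under 0.05, and 0 to 1 probe sets past the adjusted threshold. The range was -0.22 to 0.057 for DDX1, -0.18 to 0.42 for RBM3, -0.19 to 0.017 for SF3B1, -0.14 to 0.42 for DDX58, -0.029 to 0.87 for HNRNPL and -0.0027 to 0.10 for CLK2. With the replicate number as a block, 0 probe sets passed the adjusted threshold, 1332 probe sets and 9 of the genes had an unadjusted p under 0.05. The cause of these changes was not tested, except that fewer rows or arrays enter where rows or arrays are left out. Of 916 values of 47 named genes under 20 settings, 880 kept their direction and their side of the adjusted threshold, 17 turned sign and 19, all with rows as deposited, passed it. Outside the rows as deposited, the smallest adjusted p of a named gene was 0.31. The 4 arrays a group limit what can be detected, and signals near the filter level, as for ZRSR2 and DDX58, are close to background.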
